A study of Mus musculus with 8 samples.

Results

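The comparison set the untreated δ line against the untreated β line, both made from the mouse thymic epithelial line TEC100.4, to describe how far the sublines had diverged before any mutant protein was induced. Its members were the 4 arrays titled without doxycycline, 2 of the β line and 2 of the δ line, out of 8 arrays in the series, and they were chosen by title alone. TEC100.4 is an immortalized line whose origin the labels give as cortical thymic epithelial cells. Each subline carries a doxycycline-inducible construct for a mutant of TFII-I, in the β or the δ isoform. TFII-I is the general transcription factor encoded by Gtf2i. The titles name the mutant line, and the genotype field of the untreated samples reads "{beta}wt expressing" or "{delta}wt expressing", and the labels were taken to describe the inducible lines before induction. The treated groups received doxycycline, the inducer, for 24 h, and the untreated groups were cultured for the same time without it. The labels name no clone, and they do not say whether the pair of arrays in each group represents different cultures. Each subline was therefore sampled as 1 line, and a p-value measures only the spread between these arrays, which may be technical.

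Thymic epithelial cells form the stroma in which T cell precursors mature. Cortical cells select thymocytes that can recognise self MHC molecules, and medullary cells display tissue antigens. Epithelia in general are held together by keratin filaments, tight junctions and a laminin-rich basement membrane, whereas mesenchymal cells express contractile and fibrillar matrix genes.

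Total RNA was measured on Agilent one-colour mouse arrays that sat on 1 slide. Levels are log2 intensities relative to the 75th percentile of the array, so 0 is that percentile, and a line difference is δ minus β. Probes do not share a scale, so levels are compared within a gene only. Between 38390 and 38818 probes were well above background on each untreated array, and no probe was saturated. One δ array, replicate 1, had a surface defect: all 44 squares of 8 by 8 spots in 1 rectangle deviated from the median of the arrays by more than 0.3 log2 units, against at most 7 such squares on any other array. The 2603 probes with a spot there were left out on every array, and genes with a remaining spot in the surrounding rim are named as such. Correlation across genes was 0.992 to 0.994 between arrays of a line and 0.977 to 0.982 between lines. The β arrays lay in columns 1 and 2 of the slide and the δ arrays in columns 3 and 4, so slide column and line cannot be told apart. The treated arrays lay in row 1 and the untreated arrays in row 2, so slide row and treatment cannot be told apart either.

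Gtf2i, the gene whose mutants the constructs carry, read 4.14 and 4.35 on the β arrays and 4.96 and 4.79 on the δ arrays without doxycycline. Both δ arrays lay above both β arrays, a difference of 0.63 ± 0.11 (SE, n = 2 per line), or 1.55-fold. Its limma p adjusted by Benjamini-Hochberg over all genes was 0.0118, but 0.084 with only the 4 untreated arrays in the fit, where it did not pass. Without δ replicate 1 the difference was 0.55. Whether its probe also reads transcripts of the constructs was not tested. With doxycycline the difference was 0.65. Its relatives Gtf2ird1 and Gtf2ird2 had differences of 0.21 and 0.17 that did not pass.

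Of the markers that define thymic epithelium, several were dim in both lines. Psmb11, the thymoproteasome subunit of cortical cells, and Cd83 were well above background on none of the 8 arrays. Foxn1, the master regulator of thymic epithelium, read -4.81 and -5.15 in β and -4.71 and -4.51 in δ. The epithelial adhesion genes Epcam and Cdh1 were above background on 1 untreated array only, δ replicate 1, where Epcam read -3.64 against -7.71, -7.91 and -7.78 on the other untreated arrays. Trp63, a regulator of stratified epithelium, read 1.39 to 1.86, and the keratin pair Krt8 and Krt18 was well above background on all arrays. The fibroblast matrix genes Col1a1, Col3a1 and Dcn read 5.75 to 6.92 on the untreated arrays. The summed level of the 12 measured thymic epithelial markers was 5.61 and 5.77 in β and 3.86 and 3.77 in δ, while that of the 6 fibroblast markers was 7.97 to 8.11 in all 4. Such a sum runs over probes of unlike scale and follows its brightest members, here Krt8 and Krt14, so it does not describe the list as a whole. The 7 thymocyte markers summed to 3.80 to 4.18 and the 6 macrophage and dendritic markers to 3.65 to 3.93. Ptprc (CD45), Rag1, Itgax, Adgre1 and the B cell gene Ms4a1 were at background on all arrays. Other markers of these cells were detected. In each line 5 of the 7 thymocyte, 3 of the 6 macrophage and dendritic and 2 of 3 B cell markers were above background on both untreated arrays. Their part in any line difference was not tested.

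The lines differed in 2905 of 18441 genes tested (15.8%) at an adjusted p under 0.05, 1576 higher in δ (8.55%) and 1329 lower (7.21%). Most differences were small: the median size among called genes was 0.71 log2 units and 889 reached 2-fold, 499 higher and 390 lower. A small set was far apart, with 55 genes at least 8-fold higher by the fitted value and 62 at least 8-fold lower. The untreated groups did not overlap for any of the 2905 called genes, and for 55.1% of all genes tested. The median difference of all genes was -0.0012. Fewer genes were called without δ replicate 1, which held the defect, and without either treated δ array. A treated array lends its spread to the fit and also enters the filter and the choice of the brightest probe. Among 1003 called genes with several probes, all probes shared the sign of the brightest for 879 (87.6%), against 67.1% over all such genes. The counts given for gene lists below stand against the shares of 15.8%, 8.55% and 7.21% over all genes. Many list counts were smaller with only the 4 untreated arrays in the fit, where the count over all genes also fell. There 0 of 41 G1/S genes were higher and 3 lower, and 0 and 1 of 40 mitotic genes. The counts were 0 and 5 of 49 NRF2, glutathione and pentose phosphate genes, and 4 and 4 of 55 guidance genes.

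**Figure D1:**
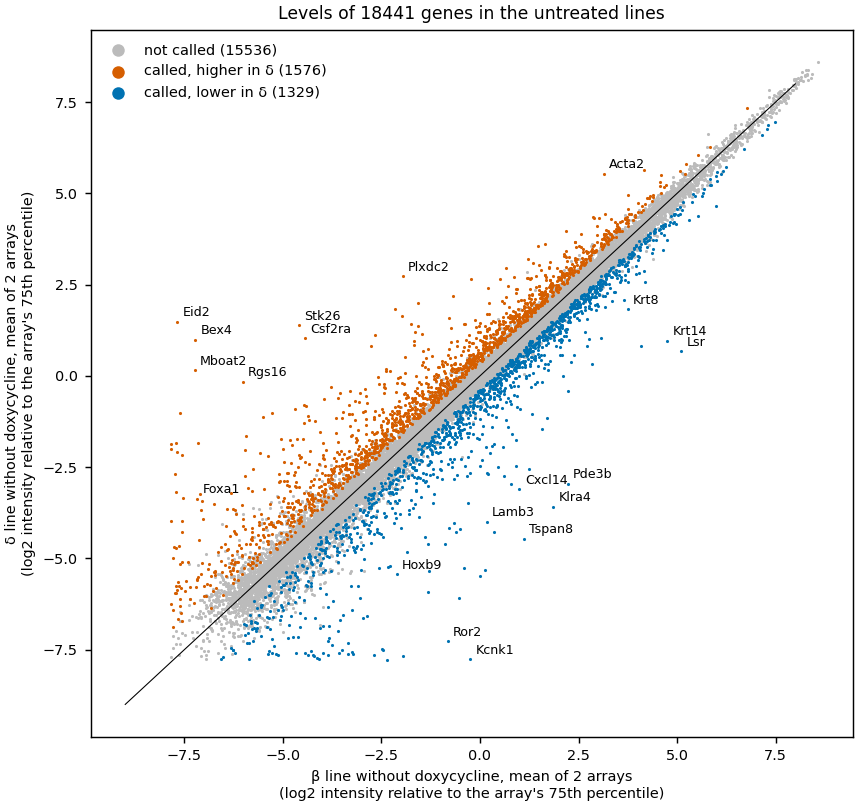
Mean level of each gene in the untreated β line (horizontal) and δ line (vertical), in log2 intensity relative to the array's 75th percentile, n = 2 arrays each; orange and blue points are the 1576 and 1329 genes called higher and lower in δ. Most points hug the diagonal, and a thin set stands far off it on both sides, with Eid2, Bex4 and Mboat2 near background in β and Kcnk1 and Ror2 near background in δ.

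Some transcripts were detected in 1 line only. Above background on both δ arrays and neither β array stood 133 genes, of which 96 were called. The reverse held for 138 genes, of which 85 were called. Over all genes 8.55% were called higher and 7.21% lower. Among the untreated groups, only the line in which such a gene was high could pass it through the filter. The direction and number of these calls therefore follow from how the genes were picked. On all 8 arrays, treated ones included, 39 genes were detected in δ alone and 30 in β alone. For such genes the fold is a lower bound, since the dim line is set at the higher of its own signal and the dimmest probe well above background on that array. The promoters of the genes with the largest bounds on each side are shown to let a reader see the regions upstream of transcripts that are present in 1 line and at background in the other. They are the 250 bases before the annotated start in RefSeq on GRCm38.p6, on the gene's strand, with CG dinucleotides in capitals, for the 3 genes with the largest bounds per direction that had an entry (14554 of the 18441 tested genes did).
Eid2: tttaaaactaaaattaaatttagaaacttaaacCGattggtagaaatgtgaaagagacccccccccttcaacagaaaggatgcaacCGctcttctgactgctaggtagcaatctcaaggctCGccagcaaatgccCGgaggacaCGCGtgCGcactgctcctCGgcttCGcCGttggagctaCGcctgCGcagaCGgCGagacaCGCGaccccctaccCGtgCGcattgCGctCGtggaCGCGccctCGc
Bex4: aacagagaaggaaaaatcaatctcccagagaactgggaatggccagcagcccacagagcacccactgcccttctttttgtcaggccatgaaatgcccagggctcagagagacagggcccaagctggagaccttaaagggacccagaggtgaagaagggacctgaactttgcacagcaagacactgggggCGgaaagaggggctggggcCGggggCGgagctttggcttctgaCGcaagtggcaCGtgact
Mboat2: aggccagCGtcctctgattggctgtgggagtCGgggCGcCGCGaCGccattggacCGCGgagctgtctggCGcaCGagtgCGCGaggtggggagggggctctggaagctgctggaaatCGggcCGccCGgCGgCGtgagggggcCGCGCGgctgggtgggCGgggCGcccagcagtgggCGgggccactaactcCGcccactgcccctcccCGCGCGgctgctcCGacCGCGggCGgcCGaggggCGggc
Kcnk1: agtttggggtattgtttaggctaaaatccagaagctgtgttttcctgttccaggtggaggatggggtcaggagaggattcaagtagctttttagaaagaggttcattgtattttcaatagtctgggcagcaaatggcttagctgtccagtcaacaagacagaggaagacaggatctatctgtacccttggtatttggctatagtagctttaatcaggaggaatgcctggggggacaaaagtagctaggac
Ror2: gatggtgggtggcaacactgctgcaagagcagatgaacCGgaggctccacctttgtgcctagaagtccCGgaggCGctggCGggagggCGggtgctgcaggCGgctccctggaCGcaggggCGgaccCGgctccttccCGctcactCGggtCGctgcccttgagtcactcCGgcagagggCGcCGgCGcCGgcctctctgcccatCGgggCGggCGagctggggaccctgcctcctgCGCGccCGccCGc
Serp2: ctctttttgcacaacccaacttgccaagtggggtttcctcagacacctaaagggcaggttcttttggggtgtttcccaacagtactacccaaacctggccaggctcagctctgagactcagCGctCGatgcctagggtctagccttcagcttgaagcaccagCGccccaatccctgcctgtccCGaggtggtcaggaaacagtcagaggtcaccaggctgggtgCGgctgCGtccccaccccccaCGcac
They lay at chr7:28267631-28267880 (+), chrX:136138746-136138995 (+), chr12:24831349-24831598 (+), chr8:125994852-125995101 (+), chr13:53286125-53286374 (-) and chr14:76556917-76557166 (-). They held 23, 5, 33, 0, 24 and 7 CG dinucleotides in that order, a motif that reads the same on both strands. Of the promoters of tested genes, 19.4% held at least as many as Eid2, 5.50% as many as Mboat2 and 17.2% as many as Ror2. The shares for the other promoters were 72.7% for Bex4, 100% for Kcnk1 and 65.6% for Serp2. No methylation was measured.

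Eid2, which encodes an inhibitor of differentiation that binds the acetyltransferase EP300, read -7.52 and -7.86 on the β arrays and 1.49 and 1.48 on the δ arrays. This was the largest bound of all called genes, at least 131-fold higher in δ (adjusted p = 1.63e-06, limma). Bex4, an X-linked gene of the brain-expressed family, read -7.02 and -7.43 in β and 0.95 and 1.02 in δ, at least 92.7-fold. Mboat2, a lysophospholipid acyltransferase, read -7.64 and -6.85 against 0.37 and -0.08, at least 51.8-fold, and all 3 of its probes had the same sign. Next came Rgs16, which switches off G protein signals, at least 41.8-fold, Radx, a replication fork protein, at least 23-fold, and Gper1, an oestrogen-binding G protein-coupled receptor, at least 14.9-fold. All 6 of these genes were again higher in δ on the separate arrays with doxycycline, by 3.14 to 9.79 log2 units as fitted. These are not bounds, and they are no measured folds where β was at background.

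In the other direction Kcnk1, a background potassium channel, read -0.26 and -0.22 in β and -7.83 and -7.69 in δ, at least 40.0-fold lower in δ (adjusted p = 8.14e-07, limma). Ano9, of the anoctamin membrane protein family, read 0.01 and -1.06 against -5.68 and -6.51, at least 33.0-fold lower, with a wider spread between the β arrays than the others. Ror2, a receptor for noncanonical WNT signals, read -0.85 and -0.79 against -6.91 and -7.64, at least 26.8-fold lower. Serp2 was at least 19.1-fold lower. With doxycycline the fitted differences of these 4 genes were -8.15, -4.71, -7.85 and -4.02, likewise no measured folds where δ was at background.

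Among genes measured above background on all 4 arrays, Stk26, a kinase of the germinal centre group, differed most. It read -4.66 and -4.52 in β and 1.45 and 1.34 in δ, a difference of 5.98 ± 0.19 (SE), or 63.3-fold. Csf2ra, the receptor subunit that binds GM-CSF, read -4.35 and -4.55 against 1.04 and 1.03, or 44.9-fold. Plxdc2, a plexin-domain membrane protein, read -2.14 and -1.79 against 2.77 and 2.70, or 25.9-fold. The replicates of either line lay within 0.35 of each other for these 3 genes, far less than the gap between lines. Prickle1, a planar cell polarity gene, was 15.9-fold higher, the transcriptional repressor Zfp503 13.8-fold, the myosin phosphatase inhibitor Ppp1r14a 13.8-fold, Kctd15 12.3-fold, the fetal mRNA-binding protein Igf2bp3 12-fold and the junctional adhesion molecule Jam2 11-fold. All probes of Prickle1 (3) and Igf2bp3 (2) had the same sign.

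The largest differences toward β were Tspan8, a tetraspanin of epithelial cell surfaces, at 1.11 and 1.12 in β against -4.41 and -4.51 in δ (47.7-fold), and Klra4, a Ly49 receptor of natural killer cells, at 1.79 and 1.93 against -3.69 and -3.49 (43.7-fold). Ly49 genes are near-identical copies, so which of them the Klra4 probe read is uncertain. Pde3b, a phosphodiesterase that degrades cyclic AMP, read 2.22 and 2.23 against -2.94 and -2.97 (36.4-fold). Clec2f, a C-type lectin, was 29.1-fold lower in δ and Dpysl3, a cytoskeletal protein of growing neurites, 24.8-fold lower with all 3 probes in the same direction. Ripk3, the kinase that triggers necroptosis, read -0.58 and -0.41 against -4.22 and -4.19, 13.0-fold lower. For these 6 genes the treated arrays gave differences of -3.54 to -5.84.

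**Figure D2:**
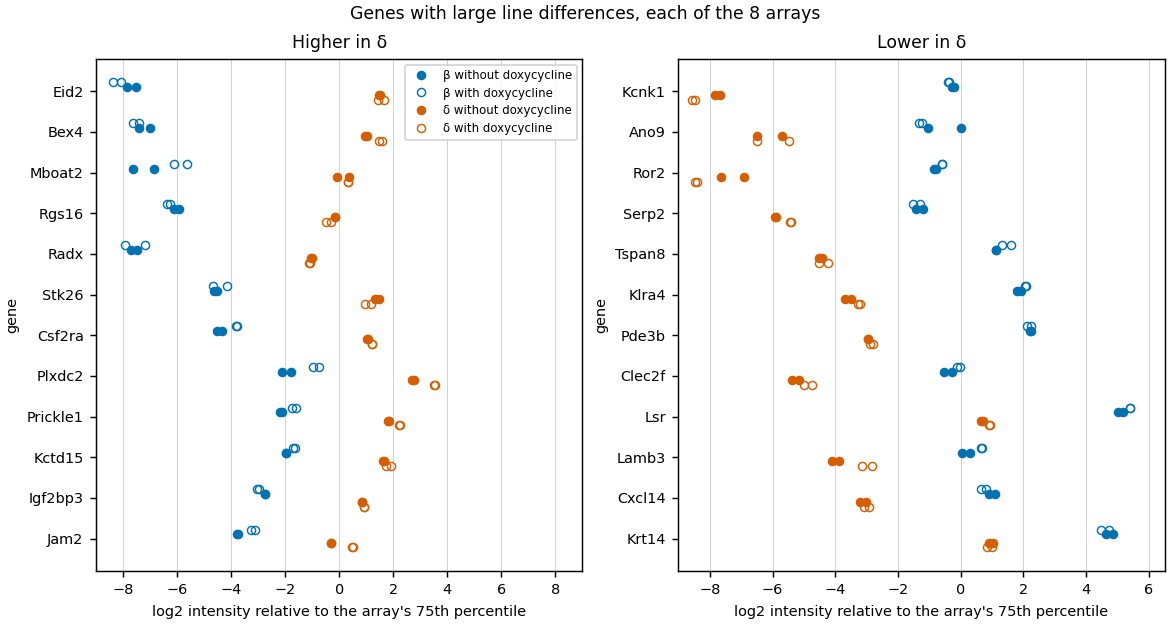
Level of 24 named genes on each of the 8 arrays, in log2 intensity relative to the array's 75th percentile; blue is β, orange δ, filled without and open with doxycycline. For every gene drawn the β and δ points form separate groups, and the open points lie nearer to the filled points of their own line than to those of the other. No called gene overlapped between lines on the untreated arrays, so the filled points of called genes separate by selection.

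Single epithelial genes were among the largest differences toward β, while tight junction genes did not lean one way. Of 25 claudin and other tight junction genes tested, 2 were higher in δ and 2 lower (median 0.03). Of 30 general epithelial genes tested, 8 were lower in δ and 1 was higher, with a list median of -0.29, and without δ replicate 2 the counts were 9 lower and 3 higher (median -0.16). Without β replicate 1 the median was -0.09. Lsr, which recruits proteins to the corners where epithelial cells meet, read 5.03 and 5.17 in β and 0.72 and 0.64 in δ, a difference of -4.42 ± 0.09 (SE, adjusted p = 2.5e-06, limma) or 21.4-fold. Ocln, the tight junction protein occludin, was at -3.96 and -3.77 in β and at background in δ, at least 3.26-fold lower. Cd24a, a surface glycoprotein, went the other way at 4.90-fold higher in δ.

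The keratins split. Of 29 tested, 6 were lower in δ and 2 higher, and their median was -0.02; without δ replicate 2 the counts were 10 and 3. Krt14, the filament partner of basal epithelial cells, read 4.62 and 4.87 in β and 1.02 and 0.90 in δ, 13.8-fold lower. Krt19 was 6.27-fold lower, Krt42 5.15-fold, Krt8 3.78-fold and Krt18 1.72-fold. Krt15 read -3.12 and -3.25 in β and -1.32 and -1.07 in δ, 3.96-fold higher, and Krt23 was 2.74-fold higher. Krt10, a keratin of suprabasal epidermis, was 1.83-fold lower. Krt5, the usual partner of Krt14, read -0.38 and -0.79 in β and -0.72 and -0.69 in δ.

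Of 29 integrins and laminins, which tie epithelium to its basement membrane, 8 were lower in δ and 4 higher (median -0.06), or 5 and 2 without δ replicate 1 and 5 and 3 without β replicate 2. Lamb3, the laminin chain that anchors skin epithelium, read 0.04 and 0.30 in β and -3.88 and -4.11 in δ, 17.9-fold lower. The β-subunit Itgb7 and the laminin receptor Itga7 were 2.59-fold and 2.41-fold lower. Itga1, a collagen receptor, was 3.97-fold higher in δ with both probes in the same direction.

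Of 30 mesenchymal genes tested, 8 were higher in δ and 2 lower, with a median of 0.21. Pdgfrb, the PDGF receptor of pericytes and fibroblasts, read -1.69 and -1.68 in β and 0.96 and 0.94 in δ, 6.22-fold higher. Cnn1, the smooth muscle calponin, read 0.25 and 0.74 against 2.78 and 2.53, 4.46-fold higher, and Zeb1, a repressor of epithelial genes, was 2.06-fold higher. Acta2, smooth muscle actin, was 5.24-fold higher by its brightest probe, but another probe became the brightest without δ replicate 1, where it gave 0.22 (adjusted p = 0.30, limma), without either treated δ array (0.33) and under quantile scaling (0.39), and none of these passed; without δ replicate 2 it was 0.44 and passed. Spp1, the secreted matrix protein osteopontin, was 3.47-fold lower in δ. Pdgfra, Col1a1 and Col3a1 read 0.89 to 0.98, 6.69 to 6.92 and 5.75 to 5.83 over the 4 arrays.

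Genes of cortical thymic epithelium did not move one way: 3 of 15 were higher in δ and 5 lower (median -0.17), or 2 and 2 without β replicate 2, 3 and 3 without β replicate 1, and 2 and 3 without δ replicate 1 or either treated δ array. Cxcl12, a chemokine that attracts thymocyte precursors, was 1.73-fold higher in δ and Bmp4 1.64-fold. Prss16, the thymus-specific serine protease, read -2.93 and -2.71 in β and -4.38 and -3.79 in δ, 2.41-fold lower, with an adjusted p of 0.051 without β replicate 2 (difference -1.15). Of 17 medullary genes 4 were lower and none higher (median -0.02), Krt14 and Dclk1 among them, the latter 1.74-fold lower with all 4 probes in the same direction. Aire, which drives tissue antigen display, read -3.57 and -3.63 in β and -3.34 and -3.80 in δ. Of 11 regulators of the pharyngeal pouch, from which the thymus forms, 2 were higher in δ and 1 lower. Their median was 0.03, and -0.16 without δ replicate 1. Meis1 was 1.94-fold higher.

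Of 31 Hox genes tested, which record position along the body axis, 8 were lower in δ, 7 of them in the Hoxb cluster, and 6 were higher, all in the Hoxa and Hoxc clusters. Of those 7 Hoxb genes, 6 were above background in β only and so entered the test through the line in which they were high. Among the 17 Hox genes with a probe above background on all 8 arrays, 6 were higher and 2 lower. Over all 31 Hox genes, normexp background correction gave 4 higher and 5 lower. Hoxb9 read -1.85 and -2.37 in β and -5.34 and -5.52 in δ, at least 9.99-fold lower. Hoxb6 read -1.56 and -1.54 against -3.82 and -3.90, 4.95-fold lower. Hoxb5, Hoxb8 and Hoxb13 were detected on both β arrays and on neither δ array, with bounds of 2.71-fold, 1.88-fold and 2.20-fold. Hoxb1 and Hoxb7 lay close to background also in β (-4.97 and -4.50, -5.07 and -4.59) and passed with adjusted p of 0.014 and 0.0105. Hoxb1 lost its call without β replicate 2 (limma adjusted p = 0.053, difference -0.90) and Hoxb7 without δ replicate 1 (limma adjusted p = 0.054, difference -0.91). The remaining lower gene was Hoxc12, at -0.61. Hoxc10 was 2.22-fold higher in δ, and Hoxc11 read -6.32 and -6.55 against -4.17 and -4.04, at least 2.72-fold higher. Without δ replicate 1 the counts were 7 lower and 3 higher, without δ replicate 2 they were 9 and 3, and without treated δ replicate 1 they were 8 and 3.

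Of 38 SOX, FOX and GATA genes, 9 were higher in δ and 1 lower, or 8 and 0 without δ replicate 1. Foxa1, a pioneer factor of endodermal epithelia, read -7.46 and -6.89 in β and -3.42 and -3.30 in δ, at least 4.56-fold higher. Sox9 was 3.09-fold, Foxd2 2.35-fold and Gata4 2.13-fold higher. Of 30 imprinted genes 3 were higher in δ and 4 lower (median -0.01), or 2 and 2 without δ replicate 1 or β replicate 2, 3 and 1 without δ replicate 2 or treated δ replicate 1, and 3 and 2 without treated δ replicate 2. Grb10 and Peg3 were 3.42-fold and 2.76-fold higher, Gnasas1 and Sgce 1.89-fold and 1.39-fold lower, and Phlda2 and Rian, near or at background in both lines, were also called lower.

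WNT genes differed in both directions and at each level of the pathway. Of 45 tested, 14 were higher in δ and 4 lower (median 0.21), with 9 and 4 when δ replicate 1 was left out. Among ligands, Wnt6 was 3.89-fold higher in δ and Wnt2 at least 4.38-fold, while Wnt10a read 1.47 and 1.66 in β against -1.55 and -1.35 in δ, 8.08-fold lower. Rspo1, which amplifies WNT signals, was 3.44-fold higher. Of the secreted antagonists, Sfrp4 was 7.35-fold lower in δ and Wif1 read -6.23 and -5.26 against -2.53 and -2.59, 9.10-fold higher by the fitted value, with 1 β array below background. Axin2 and Tcf7, both transcriptional targets of β-catenin, were 2.04-fold and 1.81-fold higher.

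Of the BMP, TGF-beta and activin genes, 7 of 51 were higher in δ and 3 lower (median 0.19), or 4 and 2 without δ replicate 1. The share called was 19.6%, near the 15.8% of all genes. Bmp7 read -1.73 and -1.64 in β and 0.87 and 0.80 in δ, 5.73-fold higher, and Smad9, which relays BMP signals, was 2.73-fold higher. The activin subunits Inhba and Inhbb were 1.82-fold and 1.86-fold lower. Kdr, a VEGF receptor, was 3.55-fold higher and Fgfr1, an FGF receptor, 2.83-fold higher with all 4 probes. The epidermal growth factor ligands Ereg and Hbegf were 3.02-fold and 2.64-fold lower, and Fgfbp1, a carrier of FGF, was 4.44-fold lower. Of 16 PDGF and VEGF genes 5 were higher and 3 lower, and of 28 FGF genes 3 and 4. Of 15 EGF receptor family genes and ligands 1 was higher and 3 lower. In the insulin-like growth factor axis 6 of 15 genes were higher and 1 lower (4 and 0 without β replicate 1), Igfbp5 by 3.88-fold and the receptor substrate Irs1 by 1.86-fold. The ligand Igf1 was lower, at -3.39 and -3.09 in β against -5.52 and -7.33, a bound of 4.89-fold with adjusted p of 0.0117, and of 0.051 and 0.059 when either β array was left out (differences -3.34 and -3.03).

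Of 24 chemokine ligands 9 were lower in δ and 3 higher (median -0.27), or 7 and 1 without β replicate 1 and 6 and 2 without treated δ replicate 1. Cxcl14, an epithelial chemokine, read 0.91 and 1.09 in β and -3.20 and -3.02 in δ, 17.3-fold lower. Cx3cl1 was 3.36-fold and Cxcl1 2.12-fold lower, and Ccl2, the monocyte chemokine, read 6.0 and 5.96 against 4.49 and 4.8, 2.52-fold lower from a spot in the rim of the defect. Among cytokines, Ltb, a lymphotoxin subunit, was 4.59-fold higher, the alarmin Il33 2.91-fold higher and Il34 1.73-fold higher. Of 20 cytokines of thymic epithelium 3 were higher in δ and 5 lower (median -0.29), but 3 and 0 with only the 4 untreated arrays in the fit. Of 35 TNF superfamily genes 2 were higher and 7 lower (median -0.16), or 1 and 3 with only the 4 untreated arrays in the fit. Of 50 interferon-stimulated genes 11 were lower in δ and 4 higher (median -0.15). Oas1a, a sensor of double-stranded RNA, read 0.61 and 0.62 against -2.86 and -2.64, 10.3-fold lower, and Parp14, Samd9l and Oasl1 were 2.13-fold to 2.37-fold lower. The guanylate-binding proteins Gbp2 and Gbp3 were 4.57-fold and 5.07-fold higher, and Ifitm1, which restricts virus entry, was at least 5.23-fold higher. Of 32 MHC and antigen processing genes 6 were lower and none higher (median -0.24), with Cd74, the MHC class II chaperone, 2.48-fold lower and H2-D1 1.64-fold lower. H2-D1 is 1 of several near-identical class I genes, so its probe may also read its neighbours.

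Cholesterol synthesis and uptake had the highest share of called genes among the lists with 20 or more tested members. Of 30 genes, 19 were lower in δ and 1 higher (median -0.52, and -0.44 with doxycycline). With only the 4 untreated arrays in the fit 7 were lower and 1 higher. Without δ replicate 1 the counts were 12 lower and 1 higher. Sqle, the squalene epoxidase, read 3.95 and 3.99 in β and 2.79 and 2.77 in δ, 2.28-fold lower (adjusted p = 0.00024, limma). Msmo1 and Cyp51, which demethylate lanosterol-type intermediates, were 2.43-fold and 1.86-fold lower. Mylip, a ubiquitin ligase, was 8.23-fold lower. Abca1, which exports cholesterol, was 1.89-fold higher. In fatty acid metabolism, with 5 of 41 genes called each way (median 0.05; 4 higher and 2 lower without δ replicate 1), the desaturase Scd1 read -4.61 and -5.02 in β and -1.74 and -1.80 in δ, 8.24-fold higher, and the elongase Elovl7 was 3.60-fold lower.

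Glycolysis and hypoxia genes were lower in δ in 16 of 45 cases and higher in 4 (median -0.17), or 10 and 3 without δ replicate 1 or without β replicate 2. Slc16a3, the lactate exporter, read 4.03 and 4.35 in β and 2.45 and 2.72 in δ, 3.04-fold lower. Pdk1, which blocks pyruvate entry into mitochondria, was 2.25-fold lower and its relative Pdk2 2.25-fold higher. Ldhb, the lactate dehydrogenase subunit of oxidative tissues, was 2.74-fold higher with both probes. Car12, a carbonic anhydrase of hypoxic cells, was 2.53-fold lower. The 76 genes of the respiratory chain and ATP synthase gave 0 calls without doxycycline in limma, with a median of 0.11.

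Of 41 genes of G1/S and replication 11 were lower and none higher, with a median of -0.26 and 36 below 0, but 6 were called without δ replicate 1 or either treated δ array and 7 without β replicate 1. E2f2, a replication transcription factor, read 1.93 and 1.90 in β and 0.83 and 0.82 in δ, 2.14-fold lower. Of 40 mitotic genes 5 were lower and 39 lay below 0 (median -0.22), Cdk1 among the 5 at 1.68-fold, and the count was 1 without δ replicate 1, 2 without δ replicate 2 or either treated δ array, and 3 without β replicate 1. Myc was 1.76-fold and Fosl1 2.68-fold lower. Of 36 genes of the ATF4 and unfolded protein responses 11 were lower and 1 higher (7 and 1 without δ replicate 1, 6 and 1 without either treated δ array), with Trib3 2.28-fold, Atf3 2.45-fold and Chac1 1.87-fold. Mt2, the metal-binding metallothionein, read 3.88 and 4.27 against 0.56 and 1.05, 9.64-fold lower from a spot in the rim of the defect, while the transferrin receptor Tfrc was 2.14-fold lower. Of 19 BCL2 family genes 6 were higher and 2 lower, or 3 and 1 without δ replicate 1, 3 and 2 without β replicate 1, and 4 and 1 without β replicate 2. The proapoptotic BH3 genes Pmaip1 and Bmf were 5.01-fold and 2.36-fold higher in δ, and Bid, another, was 1.43-fold lower. Of 69 cytosolic ribosomal protein genes 1 was called.

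Of 37 matrix proteases and inhibitors 9 were higher and 8 lower (4 and 6 without δ replicate 1 or β replicate 2, 5 and 8 without δ replicate 2, 5 and 6 without treated δ replicate 1). Plau, urokinase, was 3.62-fold lower, its inhibitor Serpinb2 3.83-fold lower, and Timp3, the matrix-bound metalloprotease inhibitor, read 3.01 and 3.11 in β and 1.17 and 0.89 in δ, 4.09-fold lower. Adamts9 was 2.75-fold and Mmp16 2.79-fold higher. The adhesion protein protocadherin Pcdh19 read 1.62 and 1.77 against -1.35 and -0.94, 7.14-fold lower, and the guidance cue Sema4f was 10.4-fold lower. Of 55 guidance genes 13 were higher and 7 lower, or 7 and 5 without δ replicate 1 and 6 and 5 without either treated δ array. Sema6d, a semaphorin, was 2.44-fold and Robo4, a guidance receptor of vessels, 2.16-fold higher. Of 39 collagens and crosslinking enzymes 5 were called each way (1 higher and 4 lower without δ replicate 1, 2 and 5 without β replicate 1). The network collagen Col8a1 was 2.34-fold higher, and the lysyl oxidase Loxl4 2.36-fold lower with all 3 probes.

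Of 44 genes of glutamine, amino acid and nucleotide metabolism, 9 were lower in δ and 2 higher (median -0.30). Those counts were 4 and 1 without δ replicate 1, 5 and 1 without either treated δ array, and 6 and 1 without β replicate 2. Mthfd2, a mitochondrial enzyme of folate metabolism, read 2.62 and 2.71 in β and 1.85 and 1.77 in δ, 1.81-fold lower, and Ctps, which makes CTP, was 1.76-fold lower. Glul, the glutamine synthetase, read 0.51 and 0.69 against 1.83 and 2.18, 2.65-fold higher. Of 49 NRF2, glutathione and pentose phosphate genes 10 were lower and 7 higher (median 0.01). The higher count was 1 without β replicate 1, δ replicate 1 or either treated δ array, and 4 without β replicate 2. Cbr3, a carbonyl reductase, was 7.42-fold lower by the fitted value with 1 δ array below background, and the glutathione transferase Gstt1 was 2.35-fold lower.

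In the Notch pathway, 5 of 24 genes were higher in δ and 2 lower (29.2% called against 15.8% of all genes, median 0.05). The lower count was 1 without any 1 of the 4 δ arrays, and the median was -0.10 without δ replicate 1 or β replicate 2. The receptor Notch4 read -2.16 and -1.94 in β and -1.08 and -0.93 in δ, 2.05-fold higher, and the target Hey1 was 1.90-fold higher, while the ligand Jag2 was 1.96-fold lower. The meiotic gene Mael, of the piRNA pathway in germ cells, read -4.85 and -4.95 against -2.63 and -2.71, 4.69-fold higher. Bcl2l15, of the BCL2 family, was 5.41-fold lower.

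**Figure D3:**
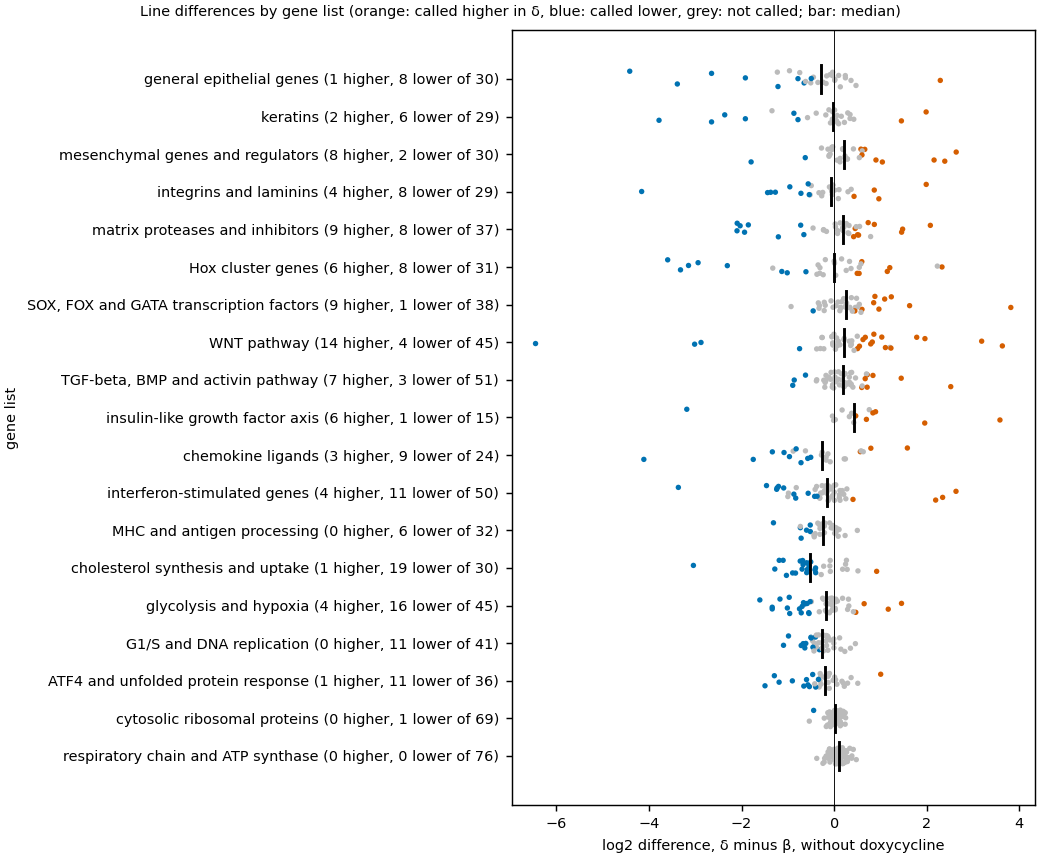
Line difference of each tested member of 19 gene lists, δ minus β in log2 units without doxycycline; orange points were called higher, blue lower, grey not called, and the black bar is the list's median. Cholesterol genes sit left of 0 with a median of -0.52, WNT and mesenchymal genes reach further right, and ribosomal and respiratory genes cluster around 0.

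Line differences were uneven along the genome. By gene position in RefSeq on GRCm38.p6, 155 of 865 tested genes on chromosome 10 were lower in δ (17.9%) and 43 higher, where 7.21% of all genes were lower. The chromosome's median was -0.18, and its median relative to all genes lay between -0.16 and -0.21 for each of the 4 pairs of a δ and a β array. Every median over 101 neighbouring genes on chromosome 10 was below 0, from -0.29 to -0.08. With doxycycline the chromosome's median was again -0.18. Chromosome 15 had 97 lower and 43 higher of 735 (median -0.11). Chromosome 14 leaned the other way, with 96 higher and 23 lower of 659 (median 0.08, and 0.06 with doxycycline). So did chromosome 18, with 51 higher and 18 lower of 466 (median 0.05, and 0.09 with doxycycline). Chromosome 19 had 74 higher and 25 lower of 636 (median 0.06 without and with doxycycline). No chromosome was tested, since neighbouring genes are not independent. Copy number was not measured.

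Runs of neighbouring called genes were also seen. The longest held 6 carboxylesterase genes on chromosome 8, Ces2b to Ces3b, all lower in δ with a median of -0.74. These are close copies, so their probes may share signal. On chromosome 10 the 5 genes from Qrsl1 to Atg5 were lower (median -0.81). On chromosome 15 a run of 5 lower genes held Srebf2, the regulator of cholesterol genes, beside Shisa8, whose spot lay in the rim. On chromosome 3 the run of Gbp3, Gbp2b, Gbp2 and Kyat3 was higher (median 2.27).

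**Figure D4:**
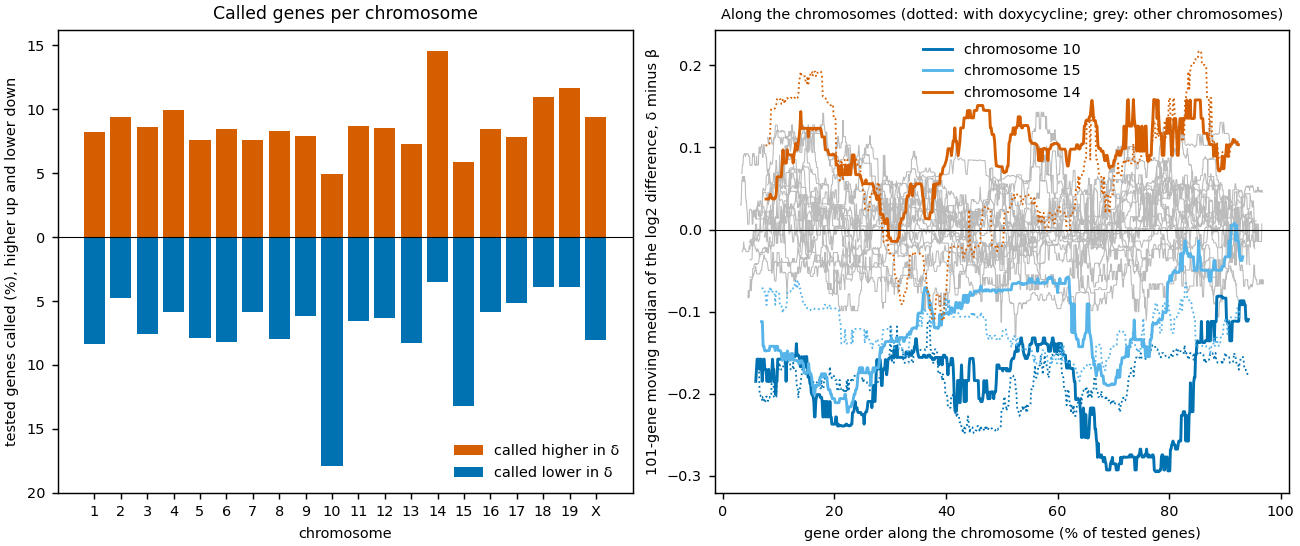
Left, percentage of tested genes on each chromosome called higher (up) or lower (down) in δ without doxycycline; right, the median line difference over 101 neighbouring genes in log2 units against gene order, dotted with doxycycline. Chromosome 10 reaches 17.9% lower and its curve stays below 0 throughout, chromosome 15 lies below 0 for most of its length and chromosome 14 mostly above.

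The same line difference could be read on the 4 treated arrays, which share no array with the untreated comparison but do share its fitted spread. There 3518 genes were called (19.1%), 2149 higher and 1369 lower in δ. Of the 2905 genes called without doxycycline, 2816 had the same sign with it (96.9%, against 70.3% of all genes), and 2051 were called in the same direction in both, 70.6% of the first list and 58.3% of the second. The Pearson correlation of the line difference across the called genes, which are not independent and share probes and slide columns, was 0.954. The count with doxycycline was 949 and 1123 without either treated δ array and 1818 and 1911 without either treated β array, and the share with the same sign was 85.2% without untreated δ replicate 2.

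In 1 gene (0.00542% of genes tested) the line difference itself differed between the untreated and the treated arrays, which also lay in different slide rows. The test was of the difference of the 2 line differences over all genes. Slco1a6, an organic anion transporter, read -7.64 and -7.85 in untreated β and -2.69 and -2.67 in untreated δ, at least 7.32-fold higher in δ. With doxycycline it read -8.07, -8.40, -8.48 and -8.58, at background in both lines. The fitted difference of differences was 5.36 ± 0.19 (SE, adjusted p = 0.00084, limma). Since the probe was at background on the other 6 arrays, this is no measured fold, and only the bound holds. It was 2.51 with normexp background correction (adjusted p = 0.0068), and with an intensity trend the adjusted p was 0.067. Over all genes, 1693 genes had an unadjusted p under 0.05. The number of genes called in this test ran from 5 to 313 when 1 array was left out, 313 being without untreated δ replicate 2. For the other 2904 genes called without doxycycline no difference between the treatments passed.

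**Figure D5:**
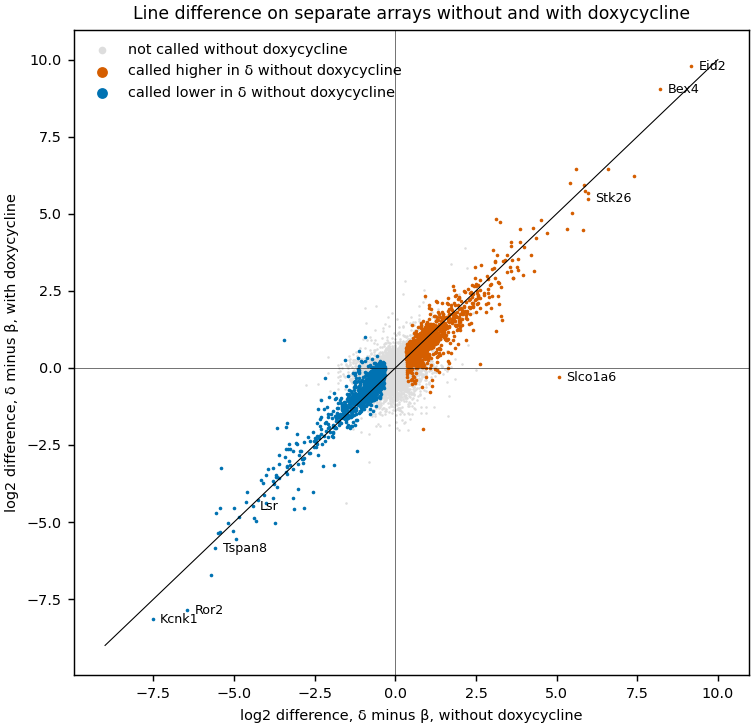
Line difference, δ minus β in log2 units, without doxycycline (horizontal) against with doxycycline (vertical), each from its own 4 arrays; coloured points were called without doxycycline. The coloured points follow the diagonal (correlation 0.954), while Slco1a6 lies at 5.07 without and -0.29 with doxycycline.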

How the data were processed

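The authors deposited Agilent Feature Extraction output (version 11.5.11, per the submitters' processing notes) with background-subtracted spot intensities on a linear scale. Control spots and 96 outlier-flagged probes were left out, spots of a probe were averaged, and log2 of the deposited intensity minus each array's 75th percentile was taken. A probe was kept if every array of any 1 group showed it well above background, and the brightest of 25989 named probes stood for each gene; 22465 probes had no RefSeq name. limma 3.58.1 (R 4.3.3; lmFit, eBayes) was fitted to all 8 arrays with 1 mean per group and 4 residual degrees of freedom, with Benjamini-Hochberg adjustment and a threshold of 0.05. The members, lists and tests were chosen with earlier results of these data known. Named genes were, among called genes without overlap, up to 15 per direction by difference, 10 by bound and 4 per list by p; Hoxb1, Hoxb7, Hoxb8, Hoxc12, Axin2 and the runs of neighbours were named after their values were seen. Alternatives covered scaling, normexp background correction (offset 50, on median spot signals), filters, probe choice, the arrays fitted and the defect. The script was tested on simulated data. Some genes are not reported here. The number of arrays limits the precision.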

Additional observations from a re-analysis of the deposited data

Results flagged for a closer look

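The line difference of Slco1a6 without doxycycline minus that with doxycycline was 5.36 log2 units as fitted (2.51 with normexp background correction), the only difference between the treatments that passed its test over all 18441 genes. The gene has 1 probe, well above background on the 2 untreated δ arrays alone, so this value is no measured fold. With an intensity trend the adjusted p was 0.067.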

How the results depend on the processing

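The 308 named called genes kept their sign under the alternatives run, with 2 exceptions: Bcl2l11 was -0.12 with the probes in the defect kept, and Tnfrsf9 was 0.14, 0.20 and 0.17 without β replicate 1, β replicate 2 and treated β replicate 2, where its other probe stood for it (-1.39 to 0.20 over all arrays left out). Of them, 200 passed under every alternative. The count of genes called without doxycycline was 1160 with only the 4 untreated arrays in the fit, 1351 at an adjusted p under 0.01, 1778 to 2955 with 1 array left out, and 2054 to 3510 under the others. With the array column as a random replicate block (consensus correlation 0.08) the count was 2903, and 2878 of the 2905 genes remained called; a fixed paired block was not possible, since each column holds 1 line. With doxycycline 1324 genes passed at 0.01, and 949 to 3896 with 1 array left out. For the difference of line differences the count was 2 with median centring, 0 with an intensity trend, 0 among probes above background on all 8 arrays (where Slco1a6 was not tested), and 5 to 313 with 1 array left out. The share of called genes higher in δ was 60.9% with the probes in the defect kept, and 47.4% to 57.3% with 1 array left out. The median of chromosome 10 relative to all genes was -0.12 with normexp correction or with no filter. Genes near background in a line have only bounds there.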
